A study of Mus musculus with 2 samples.

Results

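Iron handling and metal buffering were followed through 10 genes in nuclei from the mouse brain after subarachnoid haemorrhage (SAH). The genes were the ferritin subunits Fth1 and Ftl1, transferrin (Trf), the transferrin receptor Tfrc, the metal transporter Slc11a2, the iron exporter Slc40a1, ceruloplasmin (Cp) and the metallothioneins Mt1, Mt2 and Mt3. They were taken by symbol, with no threshold on their values, and all 10 were found among the 32285 genes of the files. The data were 2 single-nucleus RNA libraries, 1 labelled Normal and 1 labelled SAH at 12 h, each a pool of 3 mice. Both pools were of male mice, 6 to 8 weeks old by the labels and of the C57BL/6J strain by the study's methods, which give an older age range, with no transgene or drug named for either, and SAH was made by endovascular perforation, in which a filament pierces an artery at the base of the brain. The labels call the control Normal, whereas the methods describe sham-operated controls, so whether these control mice had surgery was not settled. Frozen tissue of the injured side, or of the matching region in Normal, taken between the medial prefrontal cortex and the centrolateral thalamic nucleus, gave the nuclei. With 1 library per condition there was no replicate check of any difference between conditions. No test was made, and every interval below is a 95% interval that covers counting error in these 2 libraries only.

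Free iron drives the formation of damaging oxygen radicals, and cells therefore keep it bound. Ferritin, a shell of heavy and light chains, stores iron inside the cell. Transferrin carries it outside, the transferrin receptor takes the loaded carrier into endosomes, and the transporter encoded by Slc11a2 moves iron from there to the cytosol. Ferroportin, the product of Slc40a1, is the known cellular iron exporter, and the copper enzyme ceruloplasmin oxidises the exported iron so that transferrin can bind it. Oligodendrocytes, the myelin-making cells, are rich in iron and are a main source of transferrin in the brain, and blood that enters the subarachnoid space brings haem iron with it. Metallothioneins are small cysteine-rich proteins that bind zinc and copper. Mt1 and Mt2 are induced by metals, glucocorticoids and oxidative stress, and Mt3 is the form typical of brain.

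The genes lie on the GRCm38 build, by GENCODE vM21, as follows. Of the storage genes, Fth1 (ENSMUSG00000024661) at chr19:9980598-9985098 on the plus strand, and Ftl1 (ENSMUSG00000050708) at chr7:45457944-45459884 on the minus strand. Of the carriers and uptake genes, Trf (ENSMUSG00000032554) at chr9:103204001-103230444 on the minus strand, Tfrc (ENSMUSG00000022797) at chr16:32608920-32632794 on the plus strand, and Slc11a2 (ENSMUSG00000023030) at chr15:100387898-100425072 on the minus strand. Of the export genes, Slc40a1 (ENSMUSG00000025993) at chr1:45908068-45926523 on the minus strand, and Cp (ENSMUSG00000003617) at chr3:19957054-20009145 on the plus strand. The metallothioneins lie close together, with Mt3 (ENSMUSG00000031760) at chr8:94152607-94154146 on the plus strand, Mt2 (ENSMUSG00000031762) at chr8:94172664-94173568 on the plus strand, and Mt1 (ENSMUSG00000031765) at chr8:94179082-94180327 on the plus strand. Slc11a2, Cp and Mt2 overlap a gene on the opposite strand (Gm5475, Hps3 and Gm45774).

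Translation of the ferritins and of ferroportin, and the stability of the transferrin receptor mRNA, are controlled through the iron-responsive element. This is a short hairpin bound by the iron regulatory proteins. The matches to a strict form of the element are shown because this control acts on mRNA and not on transcription. A gene without a match may still carry an element of another form. A pattern search was made in the transcripts of GENCODE vM21 on GRCm38, in the sense strand and written as DNA. It asked for a C, 5 bases, the loop CAGTGN and 5 bases that pair with the first 5, with G-T pairs allowed, 17 bases in all. Members with a match in an untranslated region (UTR) are listed below with the loop bases CAGTG in capitals.

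Fth1, 5′ UTR, chr19:9982738-9982754, plus strand: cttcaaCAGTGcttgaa
Ftl1, 5′ UTR, chr7:45459785-45459801, minus strand: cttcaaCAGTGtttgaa
Slc40a1, 5′ UTR, chr1:45925471-45925487, minus strand: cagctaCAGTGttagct
Tfrc, 3′ UTR, chr16:32631225-32631241, plus strand: cggaagCAGTGccttcc
Tfrc, 3′ UTR, chr16:32631604-32631620, plus strand: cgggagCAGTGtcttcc
Tfrc, 3′ UTR, chr16:32631669-32631685, plus strand: cggagaCAGTGatctcc
Tfrc, 3′ UTR, chr16:32631716-32631732, plus strand: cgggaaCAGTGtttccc

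Fth1, Ftl1 and Slc40a1 held 1 match each, before the coding sequence, and Tfrc held 4 after it. Of 21877 protein-coding genes, 294 (1.34%) had a match in any transcript. A match to this pattern is a description of the letters, and no binding was measured.

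The metallothionein genes lie side by side on chromosome 8. Metals act on Mt1 and Mt2 through the factor MTF1, which binds metal response elements. The 250 bases before each RefSeq start (GRCm38.p6, plus strand) are shown because the 3 neighbours gave unlike ratios in the same nuclei. Matches to the element's core, TGCACNC or TGCGCNC on either strand, are in capitals.

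Mt1, chr8:94178839-94179088: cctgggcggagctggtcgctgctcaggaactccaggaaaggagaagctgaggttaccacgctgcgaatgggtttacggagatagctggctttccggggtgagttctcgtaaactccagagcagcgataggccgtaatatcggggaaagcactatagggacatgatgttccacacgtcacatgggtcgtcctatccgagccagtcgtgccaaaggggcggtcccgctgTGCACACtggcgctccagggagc
Mt2, chr8:94172368-94172617: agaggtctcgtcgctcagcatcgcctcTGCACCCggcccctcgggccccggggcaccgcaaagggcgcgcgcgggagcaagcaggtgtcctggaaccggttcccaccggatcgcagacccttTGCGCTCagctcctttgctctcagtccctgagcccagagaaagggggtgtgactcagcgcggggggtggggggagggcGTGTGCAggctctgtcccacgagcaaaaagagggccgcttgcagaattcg
Mt3, chr8:94152357-94152606: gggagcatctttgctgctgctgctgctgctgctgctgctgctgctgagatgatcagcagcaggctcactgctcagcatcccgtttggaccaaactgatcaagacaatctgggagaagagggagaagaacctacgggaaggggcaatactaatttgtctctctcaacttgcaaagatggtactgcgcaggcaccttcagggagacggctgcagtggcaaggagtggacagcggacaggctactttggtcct

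Mt1 held 1 match in these bases, 23 bases before its start. Mt2 held 3, between 50 and 223 bases before its start, and Mt3 held 0. With the first 50 bases after the start included, the counts were 3, 4 and 1. The counts thus depend on where the start and the window are placed, and a link of the counts to the ratios was not tested. Among all 32851 RefSeq promoters of the same 300 bases, 25.7% held at least 1 match, 1.97% at least 3 and 0.517% at least 4. RefSeq promoters were found for 7 of the 10 genes. Tfrc had 2 matches in 1 of its promoters, and the promoters of Fth1, Ftl1 and Cp had 0.

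The Normal library held 12204 nuclei and 114970719 unique molecular identifiers (UMIs, each 1 counted RNA molecule), and the SAH library held 18209 nuclei and 172604358 UMIs. The study counted more control than SAH nuclei, the opposite order to these files, and the cause was not tested. Among all nuclei of the files, 78 cell barcodes were present in both libraries. After limits on quality and removal of likely doublets, 10955 Normal and 15536 SAH nuclei were kept. Nuclei were put into classes by marker genes that include none of the 10 members, and 33.6% of Normal and 34.0% of SAH nuclei matched no class. The 7 classes compared had at least 20 nuclei in each library. These were oligodendrocyte-like (1780 Normal and 3580 SAH nuclei), microglia-like (1007 and 1279), border macrophage-like (32 and 68), astrocyte-like (21 and 20), oligodendrocyte precursor-like (76 and 101), excitatory neuron-like (3061 and 3974) and inhibitory neuron-like nuclei (1261 and 1190). Astrocytes were few for this tissue, and their values rest on few UMIs. Ribosomal protein genes took 0.171% of UMIs in the Normal and 0.0948% in the SAH library. Median UMIs per kept nucleus were 6868 and 7839.5, with 1905 and 2212.5 in oligodendrocyte-like nuclei and 11324 and 12772.5 in excitatory neuron-like nuclei.

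The level of a gene in a class is its summed UMIs scaled to a class total of 1000000 UMIs (CPM, counts per 1000000). A CPM is a share of the RNA counted, so a lower share can come with the same number of molecules, and the amount of RNA per nucleus was not measured. The comparison of SAH with Normal is the log2 ratio of the CPM values. Of the 70 pairs of a gene and a class, 43 had at least 50 UMIs over both libraries, and these alone are counted. Of these 43, a difference of at least 2-fold was higher in SAH in 4 pairs and lower in 9. Among all 58773 pairs of a gene and a class with that many UMIs, 6.33% were at least 2-fold higher and 5.36% at least 2-fold lower.

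The pairs higher in SAH were Mt2 in oligodendrocyte-like, Cp in microglia-like and inhibitory neuron-like, and Trf in excitatory neuron-like nuclei. The pairs lower in SAH were Mt3 in oligodendrocyte-like, microglia-like and both kinds of neuron-like nuclei, Ftl1 in the same classes except excitatory neuron-like nuclei, Slc40a1 in microglia-like and Trf in border macrophage-like nuclei. Some pairs had 50 UMIs in 1 library only. Through SAH these were Mt2 (20 and 97 UMIs), Cp in microglia-like (22 and 137) and inhibitory neuron-like nuclei (49 and 159), and border macrophage-like Trf (39 and 51). Through Normal it was Mt3 in microglia-like nuclei (76 and 30). By class, oligodendrocyte-like nuclei had 1 higher and 2 lower of 9 (over all genes, 7.55% and 6.11%), and microglia-like nuclei 1 and 3 of 9 (6.40% and 5.55%). Excitatory neuron-like nuclei had 1 and 1 of 10 (7.64% and 5.22%), and inhibitory neuron-like nuclei 1 and 2 of 8 (3.88% and 5.49%). Border macrophage-like nuclei had 0 and 1 of 4 (17.7% and 6.39%), and the astrocyte-like and oligodendrocyte precursor-like classes had 0 of 1 (11.0% and 6.39%) and 0 of 2 (2.98% and 3.10%). At 1.5-fold over all classes, 7 of the 43 pairs were higher and 14 lower, against 12.95% and 17.78% of all pairs. The median log2 ratio of the members was -0.25 in oligodendrocyte-like, -0.30 in microglia-like, -0.22 in excitatory and -0.51 in inhibitory neuron-like nuclei, where the medians over all genes were -0.09, 0.01, -0.14 and -0.20.

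The spans of Ftl1 and Mt3 on the genome are 1.941 and 1.54 kb. Genes spanning up to 5 kb stood lower as a group, with 21.9% of such pairs at least 2-fold lower and 7.37% at least 2-fold higher. Of the 43 pairs, 21 were of members this short (Fth1, Ftl1 and the metallothioneins), and 7 of these 21 were at least 2-fold lower and 1 was at least 2-fold higher.

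**Figure D1:**
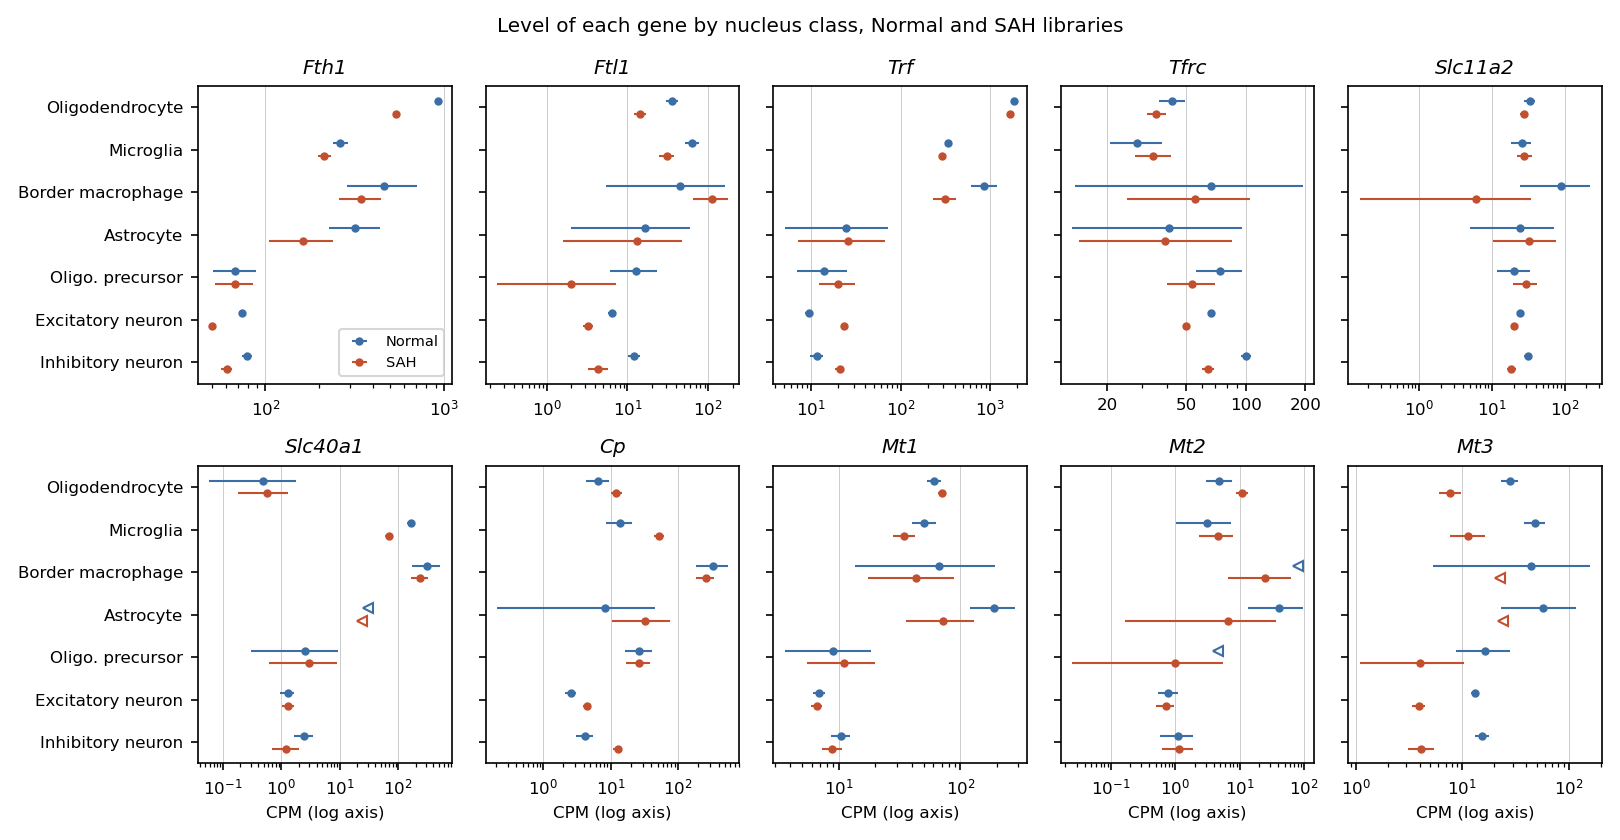
Level of each of the 10 genes (CPM, log axis) in 7 classes of nuclei, with Normal in blue and SAH in red; bars are exact Poisson 95% intervals, and open triangles mark the upper limit where no UMI was counted. Trf in oligodendrocyte-like nuclei lay at 1866 CPM in Normal and 1651 CPM in SAH, and Slc40a1 in microglia-like nuclei at 163 and 69.0 CPM.

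**Figure D2:**
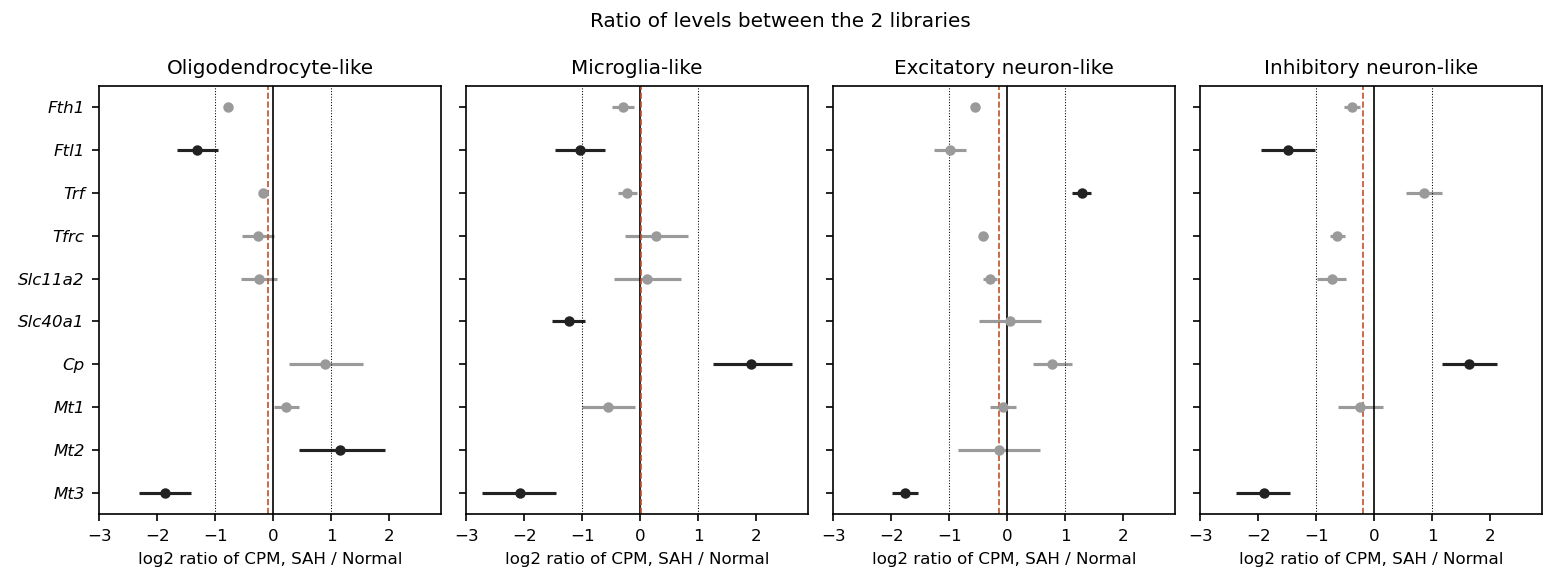
Log2 ratio of CPM, SAH over Normal, of the members that passed the minimum of 50 UMIs in the 4 largest classes; bars are exact 95% intervals, dark points are at least 2-fold apart, dotted lines mark 2-fold and the dashed red line the median over all genes of the class. Mt3 lay between -2.07 and -1.76 in the 4 classes, left of every other member in each.

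The ferritin subunits stood lower in SAH in oligodendrocyte-like, microglia-like and both neuron classes by CPM, although Fth1 turned to the higher side in microglia-like and inhibitory neuron-like nuclei when set against genes of like span. Fth1, the heavy chain with the ferroxidase activity that loads iron into the shell, had 925 CPM (896 to 955) in Normal and 537 CPM (522 to 552) in SAH oligodendrocyte-like nuclei, a log2 ratio of -0.79 (-0.85 to -0.72). In microglia-like nuclei it had 263 and 214 CPM, a log2 ratio of -0.30 (-0.48 to -0.11). In excitatory and inhibitory neuron-like nuclei the log2 ratios were -0.55 and -0.38. In oligodendrocyte precursor-like nuclei its 67.5 and 67.4 CPM gave a ratio of 0.00 with an interval from -0.54 to 0.55, a range that leaves room for moderate differences either way. The 21 Normal and 20 SAH astrocyte-like nuclei had 319 CPM (227 to 437) and 163 CPM (105 to 240). Oligodendrocyte-like nuclei were highest in both libraries, and the precursor and neuron classes were lowest. Between them, border macrophage-like nuclei (465 CPM in Normal) and astrocyte-like nuclei had intervals that overlapped in Normal.

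Ftl1, the light chain that helps to build the iron core, showed larger differences than Fth1 in these 4 classes. It had 35.8 CPM (30.3 to 42.1) in Normal and 14.5 CPM (12.1 to 17.2) in SAH oligodendrocyte-like nuclei, 2.48 times lower, and 63.0 and 30.7 CPM in microglia-like nuclei, 2.05 times lower. Inhibitory neuron-like nuclei had 12.2 and 4.37 CPM, a log2 ratio of -1.48 (-1.96 to -1.02), and excitatory neuron-like nuclei 6.47 and 3.25 CPM, a log2 ratio of -0.99 (-1.27 to -0.71). In neurons the processed copy Ftl1-ps1 was counted about as often as Ftl1 itself, with 8.27 and 2.81 CPM in excitatory neuron-like nuclei, so the split of reads between the copies is uncertain there. In oligodendrocyte-like nuclei Ftl1-ps1 had 4 and 6 UMIs only.

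The lower ferritin values came with lower values of other short genes. The summed CPM of ribosomal protein genes had a log2 ratio of -1.04 in oligodendrocyte-like, -0.82 in microglia-like, -0.86 in excitatory and -0.97 in inhibitory neuron-like nuclei. Over all genes of oligodendrocyte-like nuclei with 50 UMIs, the median log2 ratio was -0.69 for spans under 2 kb and 0.13 for spans of 200 to 500 kb. Of genes spanning up to 5 kb, 24.7% stood at least 2-fold lower and 7.76% at least 2-fold higher in oligodendrocyte-like nuclei. The shares were 28.7% and 4.01% in microglia-like, 16.5% and 10.0% in excitatory and 24.6% and 4.29% in inhibitory neuron-like nuclei. Set against the median of 500 genes of like span, Fth1 had log2 ratios of -0.25 in oligodendrocyte-like, 0.23 in microglia-like, -0.22 in excitatory and 0.17 in inhibitory neuron-like nuclei, and Ftl1 had -0.66, -0.36, -0.54 and -0.80. Ftl1 thus lay below the median of genes of its span in the 4 classes, and Fth1 did so in oligodendrocyte-like and excitatory neuron-like nuclei. These values have no interval, and that of Ftl1 in microglia-like nuclei rests on 100 and 81 UMIs. The part of whatever lowered short genes in the ferritin values was not tested.

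**Figure D3:**
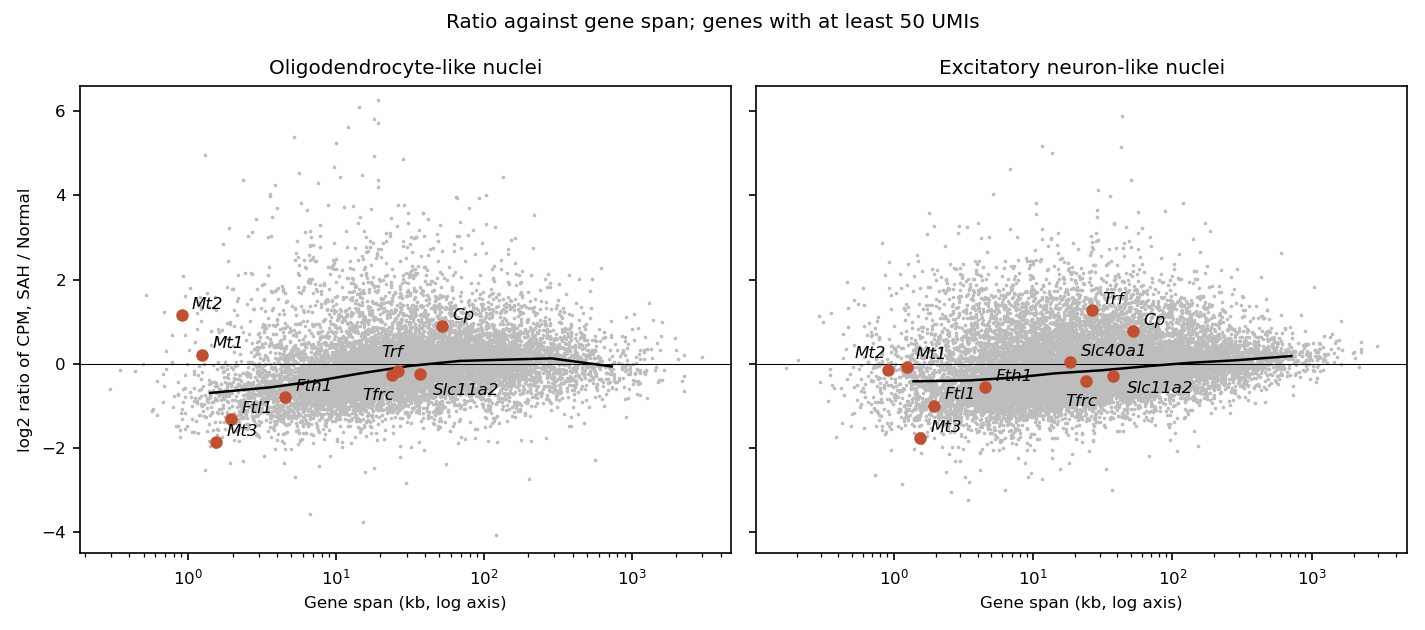
Log2 ratio of CPM, SAH over Normal, against genomic span (kb, log axis) for genes past the minimum of 50 UMIs in oligodendrocyte-like (left) and excitatory neuron-like nuclei (right); grey points are all genes, the black line is the median by span, and red points are the members. Median ratios ran from -0.69 under 2 kb to 0.13 at 200 to 500 kb in oligodendrocyte-like nuclei, and Mt1 and Mt2 lay above that line while Mt3 and Ftl1 lay below it.

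Trf was a gene of oligodendrocytes in both libraries. That class held 83.5% of all Trf UMIs of kept nuclei in Normal and 79.8% in SAH. Its level there was 1866 CPM in Normal and 1651 CPM in SAH, which gave a log2 ratio of -0.18 (-0.22 to -0.14) against a median of -0.09 over all genes of the class. Microglia-like nuclei had 342 and 292 CPM, a log2 ratio of -0.22 (-0.38 to -0.06).

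The neuron classes, where Trf was low, had more of it in SAH. Excitatory neuron-like nuclei had 9.47 CPM (8.55 to 10.5) in Normal and 23.0 CPM (21.8 to 24.3) in SAH, from 385 and 1296 UMIs, and a log2 ratio of 1.28 (1.12 to 1.45). Inhibitory neuron-like nuclei had 11.5 and 20.8 CPM, a log2 ratio of 0.85 (0.55 to 1.16). The excitatory ratio was below 2-fold, at 0.87, with nuclei thinned to 1000 UMIs and at 0.985 with equal weight for every nucleus. After thinning every nucleus to 1000 UMIs, 1.37% of Normal and 2.64% of SAH excitatory neuron-like nuclei had a Trf UMI. Free RNA from broken oligodendrocytes enters droplets of other nuclei, so Trf was set beside the 9 marker genes that define the oligodendrocyte class. These summed to 57.7 CPM in Normal and 43.6 CPM in SAH excitatory neuron-like nuclei, lower in SAH, whereas Trf was higher. In oligodendrocyte-like nuclei themselves the same genes summed to 22037 and 13167 CPM, so their lower sum in neurons does not measure the amount of oligodendrocyte RNA there. For every 100 UMIs of those 9 genes, excitatory neuron-like nuclei had 16.4 Trf UMIs in Normal and 52.9 in SAH, and oligodendrocyte-like nuclei had 8.47 and 12.5. Microglia-like nuclei had 84.7 and 141, and border macrophage-like nuclei 205 and 255. The ratio in neurons was above the class-wide ratio of oligodendrocyte-like nuclei of the same library. That class was not uniform, and its SAH clusters described below had ratios of 8.44, 12.4 and 45.5. The 9 genes also place nuclei in classes. By rule a neuron-like nucleus has fewer of their UMIs than of its own markers, which can raise its ratio. Outside the rule, Mbp had 47.8 and 36.5 CPM in excitatory neuron-like and 2251 and 2251 CPM in oligodendrocyte-like nuclei. Mal had 9.25 and 5.69 CPM in the former and 2919 and 1189 CPM in the latter. The part of free RNA in the neuron values was not tested.

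**Figure D4:**
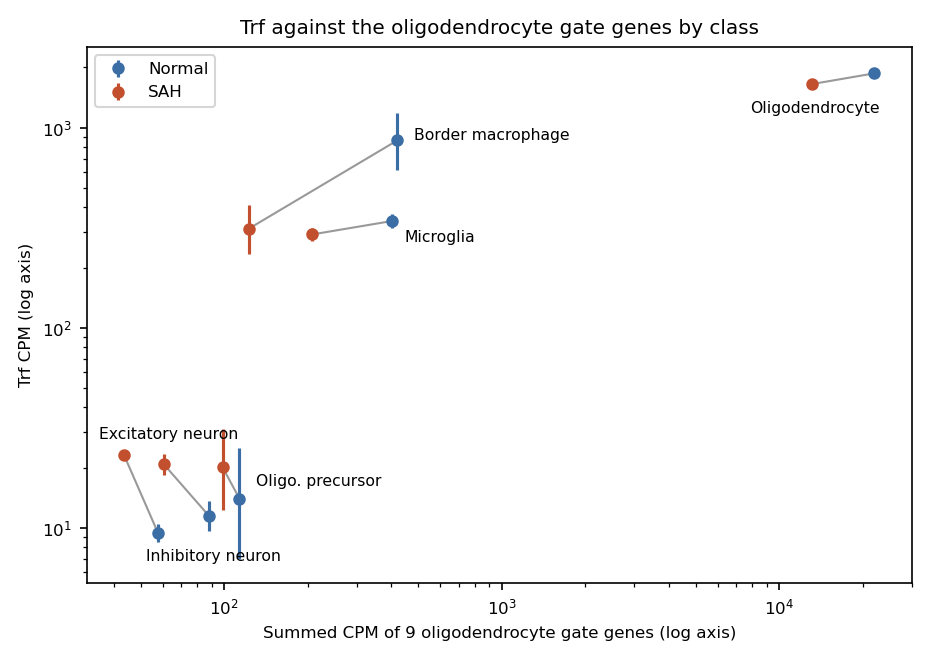
Trf (CPM, log axis) against the summed CPM of the 9 oligodendrocyte gate genes (log axis) in 6 classes, with Normal in blue, SAH in red, a line joining the libraries of a class, and exact Poisson 95% intervals on Trf. In the neuron classes the SAH point lies up and to the left of the Normal point, for excitatory neuron-like nuclei from 57.7 to 43.6 CPM of gate genes and from 9.47 to 23.0 CPM of Trf. The rule that forms the classes limits the gate genes in every class but the oligodendrocyte-like one.

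Border macrophage-like nuclei had 864 CPM (614 to 1181) of Trf in Normal and 312 CPM (233 to 411) in SAH, a log2 ratio of -1.47 (-2.10 to -0.83) on 39 and 51 UMIs. The oligodendrocyte gate genes in those nuclei were lower in SAH as well, at 421 and 122 CPM, on 19 and 20 UMIs. For every 100 of those UMIs there were 205 Trf UMIs in Normal and 255 in SAH, against 8.47 and 12.5 in oligodendrocyte-like nuclei. The rule for the class limits the gate genes here too, and the part of free RNA in these Trf values was not tested.

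The genes that take up iron showed smaller differences. Tfrc had UMIs in all 7 classes and held most of its assigned UMIs in neurons. It had 66.6 CPM in Normal and 50.1 CPM in SAH excitatory neuron-like nuclei, a log2 ratio of -0.41 (-0.49 to -0.34), and 100 and 64.4 CPM in inhibitory neuron-like nuclei, a log2 ratio of -0.64 (-0.77 to -0.51). In oligodendrocyte-like nuclei the ratio was -0.27 (-0.54 to 0.01), in microglia-like nuclei 0.27 (-0.26 to 0.82) and in oligodendrocyte precursor-like nuclei -0.47 (-1.04 to 0.09). The few endothelial-like nuclei, 12 in Normal and 9 in SAH, had 22 and 7 Tfrc UMIs, too few for a comparison in a class below the minimum size. The blood-brain barrier is the site where this receptor is best known in brain.

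Slc11a2, whose product brings iron out of the endosome, also stood lower in SAH neurons. It had 24.6 and 20.04 CPM in excitatory neuron-like nuclei, a log2 ratio of -0.30 (-0.42 to -0.17), and 31.2 and 18.7 CPM in inhibitory neuron-like nuclei, a log2 ratio of -0.74 (-0.98 to -0.50). The glial values had wide intervals, -0.25 (-0.55 to 0.06) in oligodendrocyte-like and 0.12 (-0.45 to 0.71) in microglia-like nuclei. Both uptake genes lay below the median of all genes in these neurons (-0.14 in the excitatory and -0.20 in the inhibitory class).

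Slc40a1, which encodes ferroportin, was a gene of the macrophage classes. Microglia-like nuclei had 163 CPM (143 to 184) in Normal and 69.0 CPM (59.4 to 79.8) in SAH, from 258 and 182 UMIs, a log2 ratio of -1.24 (-1.52 to -0.96) or 2.36 times lower. Only 2.78% of the 9563 genes of the class had a lower ratio. After thinning to 1000 UMIs, 15.3% of Normal and 7.62% of SAH microglia-like nuclei had a Slc40a1 UMI, against 0 of 1627 (up to 0.226%) and 0.0291% of oligodendrocyte-like nuclei, a class with 2 Slc40a1 UMIs in Normal and 5 in SAH before thinning. Microglia-like nuclei held 60.6% of all Slc40a1 UMIs of kept nuclei in Normal and 46.1% in SAH. Border macrophage-like nuclei had 310 CPM (170 to 520) and 233 CPM (165 to 319), values whose intervals overlapped. Excitatory neuron-like nuclei stood at 1.28 and 1.32 CPM.

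The microglia-like nuclei of the libraries fell into separate clusters when all nuclei were grouped by expression, with no integration of the libraries. Of the clusters that held most of them, 1 had 977 Normal and 33 SAH nuclei and the other had 22 and 1243. The Slc40a1 value is therefore a comparison of nuclei that also differed in many other genes.

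Cp differed in the opposite direction from Slc40a1 in microglia-like nuclei. It had 13.9 CPM (8.69 to 21.0) in Normal and 52.0 CPM (43.6 to 61.4) in SAH, from 22 and 137 UMIs, a log2 ratio of 1.91 (1.25 to 2.63). Its ratio was above that of 98.3% of the genes of the class. Inhibitory neuron-like nuclei had 4.15 and 12.9 CPM, a log2 ratio of 1.63 (1.16 to 2.13), oligodendrocyte-like nuclei 6.58 and 12.2 CPM, a log2 ratio of 0.89 (0.27 to 1.56), and excitatory neuron-like nuclei 2.58 and 4.41 CPM, a log2 ratio of 0.77 (0.44 to 1.12). Cp was thus higher in SAH in the 4 largest classes. Some markers of other cell types were higher in SAH beside it, and others were not. Border macrophage markers summed to 262 and 329 CPM in microglia-like and 2.61 and 7.09 CPM in excitatory neuron-like nuclei. The sums were 1.86 and 3.72 CPM in inhibitory neuron-like and 1.95 and 9.08 CPM in oligodendrocyte-like nuclei. Choroid plexus markers summed to 15.1 and 38.7 CPM in microglia-like, 20.4 and 36.3 CPM in inhibitory neuron-like, 14.9 and 24.3 CPM in excitatory neuron-like and 13.9 and 36.7 CPM in oligodendrocyte-like nuclei. Astrocyte markers summed to 252 and 347 CPM in microglia-like and 21.9 and 28.3 CPM in inhibitory neuron-like nuclei. They were lower in SAH in oligodendrocyte-like (139 and 123 CPM) and excitatory neuron-like nuclei (57.1 and 49.7 CPM). Vascular leptomeningeal markers summed to 16.4 and 12.5 CPM in microglia-like and 8.47 and 10.5 CPM in inhibitory neuron-like nuclei. In excitatory neuron-like nuclei they had 13.1 and 13.3 CPM, and in oligodendrocyte-like nuclei 6.58 and 6.61 CPM. The part of these cells' RNA in the Cp values was not tested. Border macrophage-like nuclei had 332 and 257 CPM with overlapping intervals. The 17 Normal and 27 SAH vascular leptomeningeal-like nuclei, below the minimum size, had 21 and 56 Cp UMIs. The gene overlaps Hps3 on the opposite strand, and whether the counting used strand was not given in the sources used here. Hps3 did not share the direction, with log2 ratios of -0.29 in microglia-like, -0.17 in excitatory and -0.55 in inhibitory neuron-like nuclei.

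Of the metallothioneins, Mt3 stood lowest in SAH among the 10 genes in the 4 largest classes. It had 28.0 CPM (23.1 to 33.6) in Normal and 7.73 CPM (6.02 to 9.79) in SAH oligodendrocyte-like nuclei, a log2 ratio of -1.86 (-2.31 to -1.41). Microglia-like nuclei had 47.9 and 11.4 CPM, a log2 ratio of -2.07 (-2.73 to -1.45). The values were 13.3 and 3.91 CPM in excitatory and 15.5 and 4.13 CPM in inhibitory neuron-like nuclei, log2 ratios of -1.76 (-2.0 to -1.53) and -1.91 (-2.39 to -1.45). Only 0.178% of genes in microglia-like and 0.273% in oligodendrocyte-like nuclei had a lower ratio. Set against 500 genes of like span, the ratio was -1.18 in oligodendrocyte-like, -1.39 in microglia-like and -1.34 in excitatory neuron-like nuclei. Astrocytes, a usual source of Mt3, had 7 UMIs in Normal and 0 in SAH, where the interval of 0 UMIs reaches 24.0 CPM.

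Mt1 and Mt2 did not stand lower with Mt3 in oligodendrocyte-like nuclei. In oligodendrocyte-like nuclei Mt1 had 60.7 CPM (53.4 to 68.7) in Normal and 70.7 CPM (65.3 to 76.5) in SAH, a log2 ratio of 0.22 (0.01 to 0.44). Mt2 had 4.87 CPM (2.98 to 7.53) and 10.9 CPM (8.82 to 13.3) there, from 20 and 97 UMIs, a log2 ratio of 1.16 (0.45 to 1.93). Microglia-like nuclei had 50.4 and 34.5 CPM of Mt1, a log2 ratio of -0.55 (-0.996 to -0.09). In excitatory neuron-like nuclei the ratios were -0.07 (-0.30 to 0.16) for Mt1 and -0.15 (-0.85 to 0.57) for Mt2. Within oligodendrocyte-like nuclei the 3 neighbouring genes thus had unlike values, with Mt2 2.23 times and Mt1 1.17 times higher and Mt3 3.62 times lower in SAH, and Mt1 turned to -0.03 when every nucleus had equal weight. In microglia-like nuclei Mt1 stood 0.13 above genes of like span.

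The oligodendrocyte class was not uniform in SAH. After thinning to 1000 UMIs, Trf had a variance over mean of 1.45 across Normal and 4.00 across SAH oligodendrocyte-like nuclei, and the highest nucleus had 14 and 25 UMIs. Both ends were fuller in SAH. Nuclei without a Trf UMI made up 17.1% of 1627 Normal and 34.3% of 3440 SAH thinned nuclei, and nuclei with 8 or more made up 1.11% (18 nuclei) and 3.66% (126 nuclei). Mt1 was higher in SAH nuclei with more Trf, at 54.2 CPM at 0 Trf UMIs, 58.5 CPM at 1 to 3, 112 CPM at 4 to 7 and 246 CPM at 8 or more. In Normal the 4 values were 43.0, 72.0, 54.7 and 55.6 CPM, the last from 1 UMI. These bins were set after seeing the data. Of the 126 SAH nuclei with 8 or more Trf UMIs, 79 lay in the cluster S3 described next. So did 58 of the 304 SAH nuclei with 4 to 7, so this trend and that cluster overlap.

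Clustering without the 10 genes, and with no integration of the libraries, split the oligodendrocyte-like nuclei almost wholly by library. Each condition had 1 library, so differences of library and of condition cannot be told apart in this split. The main Normal group held 1721 nuclei (N), and the SAH nuclei lay in groups of 1847 (S1), 1357 (S2) and 305 (S3). S3 held 1 Normal nucleus, and the genes that led it against S1 and S2 included Flnc, Rgs20, Amotl1, Serpina3n, Kit and Il33. It made up 8.52% (7.63 to 9.48) of SAH oligodendrocyte-like nuclei and carried 24.2% of their Trf UMIs, 33.0% of their Mt1 UMIs and 49.5% of their Mt2 UMIs. Trf stood at 2041 CPM in N, 1163 in S1, 1710 in S2 and 5857 (5667 to 6053) in S3. Mt1 stood at 63.8, 52.7 and 51.6 CPM in N, S1 and S2 and at 341 CPM (296 to 391) in S3. Mt2 stood at 4.34, 5.73 and 6.27 CPM and at 78.8 CPM (58.1 to 104) in S3, from 48 UMIs.

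Against N, S3 was thus 2.87 times higher in Trf, 5.35 times higher in Mt1 and 18.1 times higher in Mt2, as a description of a cluster found in these nuclei. Fth1 did not share this pattern, with 995 CPM in N and 529, 580 and 645 CPM in S1, S2 and S3. Mt3 was at 29.3, 7.57, 7.41 and 14.8 CPM, and Ftl1 at 37.5, 13.8, 14.0 and 26.3 CPM, with S3 nearer to N than S1 and S2 were, on 9 and 16 UMIs. Cp stood at 6.51, 12.6, 12.0 and 6.56 CPM, the last from 4 UMIs with an interval of 1.79 to 16.8 CPM that covers the values of S1 and S2. Slc39a14, a zinc and iron importer that is no member of the 10, had 10.6, 73.8, 49.6 and 587 CPM. For every 100 UMIs of the oligodendrocyte gate genes, the Trf UMIs were 8.50 in N, 8.44 in S1, 12.4 in S2 and 45.5 in S3.

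Other cell types' genes were also measured in S3. The myeloid markers summed to 186 CPM in N and 185 CPM in S3, a sum that the rule for the class keeps low. The border macrophage markers among them summed to 1.90 CPM in N, 7.11 in S1, 4.85 in S2 and 49.2 in S3. Of all nuclei in the cluster that gave S3, 87.7% were oligodendrocyte-like. For the clusters that gave N, S1 and S2 the shares were between 99.9% and 100%. Median UMIs per nucleus were 1886 in N and 2018 in S3. Before thinning, 78.0% of S3 nuclei had a Trf UMI against 94.7% of N nuclei, and such shares depend on the depth of each nucleus. For Mt1 and Mt2 the share was higher in S3, at 40.3% against 11.9% and 12.5% against 0.813%. Among the thinned nuclei of S3, 31 had 0 Trf UMIs, 48 had 1 to 3, 58 had 4 to 7 and 79 had 8 or more. In the same bins, the 1627 thinned Normal oligodendrocyte-like nuclei numbered 279, 1056, 274 and 18. S3 nuclei with fewer UMIs than the thinning depth are missing from these counts, which cover only part of the 305 nuclei of S3. Over the whole class, 140 of the 3580 SAH oligodendrocyte-like nuclei were under that depth. Most of the counted S3 nuclei thus had 4 or more Trf UMIs, whereas most of the Normal nuclei had 1 to 3. The higher Trf level of S3 was therefore spread over most, though not all, of its counted nuclei. This says nothing of the missing S3 nuclei. The part of doublets or of RNA from other cells in S3 was not tested further. Without S3 the class ratios were -0.47 for Trf, -0.25 for Mt1 and 0.27 for Mt2, so the Mt2 difference was no longer 2-fold and Mt1 turned from higher to lower in SAH. S3 was left out as the cluster with the highest Trf level in SAH and held 1 Normal nucleus, so the Trf ratio was bound to fall.

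**Figure D5:**
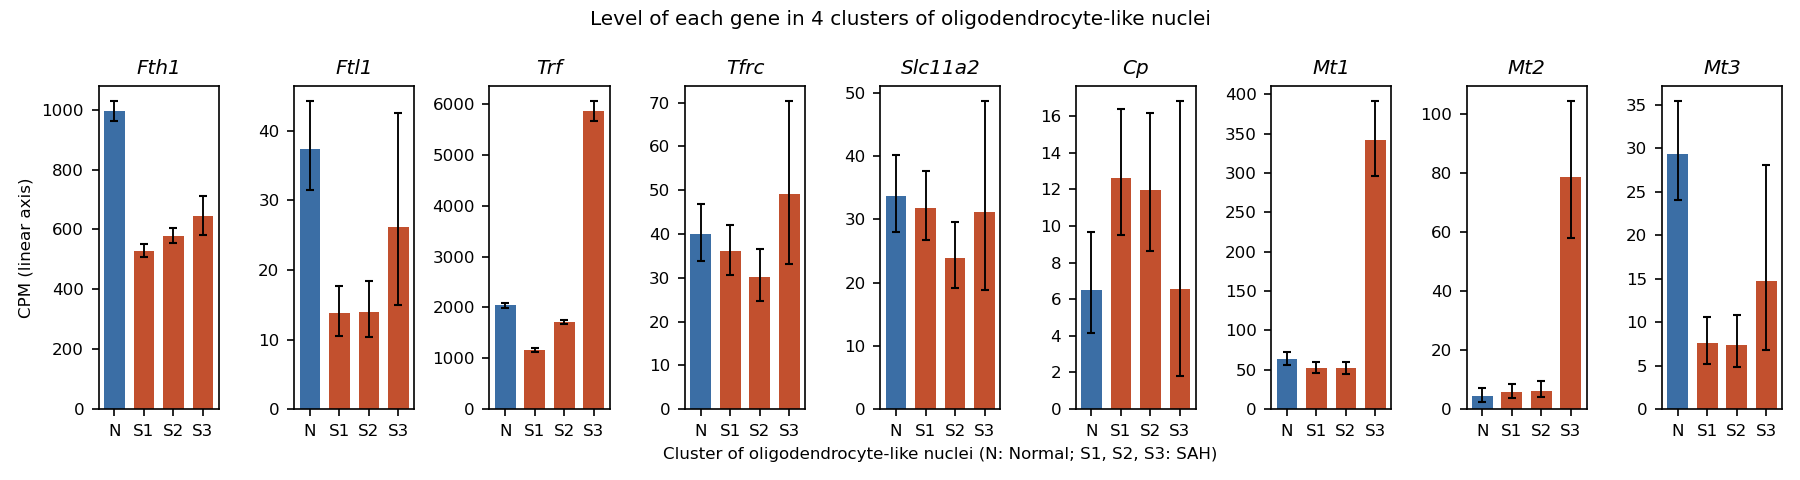
Level (CPM, linear axes that start at 0) of 9 genes in 4 clusters of oligodendrocyte-like nuclei, 1 of the Normal library (N, blue) and 3 of the SAH library (S1, S2, S3, red), with exact Poisson 95% intervals. Trf, Mt1 and Mt2 were highest in S3, at 5857, 341 and 78.8 CPM, while Fth1 was highest in N at 995 CPM; Slc40a1, nearly absent from the class, is left out.

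Other genes of iron and haem metabolism were read from a list of 43. In oligodendrocyte-like nuclei 24 passed the minimum of 50 UMIs, of which 2 were at least 2-fold higher (background 7.55%) and 1 at least 2-fold lower (6.11%). Slc39a14 had 11.5 CPM in Normal and 97.9 CPM in SAH, so that its log2 ratio was 3.09 (2.67 to 3.55). Hfe, a partner of the transferrin receptor, had 2 and 59 UMIs and passed the minimum through SAH alone. Slc22a17 had 296 and 148 CPM. In microglia-like nuclei, 1 of 25 was higher (background 6.40%) and 1 lower (5.55%). These were Slc39a14, with 17.02 and 73.6 CPM and a log2 ratio of 2.11 (1.53 to 2.75), and the iron-sulphur scaffold Iscu at -1.38 (-1.89 to -0.87).

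In excitatory neuron-like nuclei 3 of 32 were higher (background 7.64%) and 1 was lower (5.22%). Higher were the low-level genes Cd163, Cybrd1 and Slc39a8, and lower was Iscu at -1.07 (-1.28 to -0.86). Slc39a14 did not share the direction of oligodendrocyte-like and microglia-like nuclei there, with 27.7 and 23.5 CPM. Nor did it in oligodendrocyte precursor-like nuclei, with 34.4 and 27.2 CPM and a log2 ratio of -0.34 (-1.17 to 0.48). Cd163, the macrophage receptor for haemoglobin bound to haptoglobin, had 7 and 45 UMIs in excitatory neuron-like nuclei. It is also 1 of the 8 border macrophage markers, whose sum there was 2.61 CPM in Normal and 7.09 CPM in SAH (106 and 399 UMIs), and the endothelial markers summed to 31.7 and 59.4 CPM. The part of RNA from those cells in these values was not tested. Inhibitory neuron-like nuclei had 0 of 28 past 2-fold either way (background 3.88% higher and 5.49% lower). In border macrophage-like nuclei Fbxl5, which turns over an iron regulatory protein, was 1 of 2 and stood higher (4 and 90 UMIs, background 17.7%). It passed the minimum through SAH alone, in a class with 45138 UMIs in Normal and 163275 in SAH. In oligodendrocyte precursor-like nuclei the haem-making enzyme Fech was 1 of 12 and stood lower (34 and 19 UMIs, background 3.10%). The iron regulatory protein genes Aco1 and Ireb2, whose products bind the hairpins above, had log2 ratios of 0.06 and 0.25 in oligodendrocyte-like and of 0.17 and 0.03 in excitatory neuron-like nuclei. In microglia-like nuclei they had 0.74 (0.12 to 1.39) and -0.33 (-0.56 to -0.10). Hmox1, the inducible haem oxygenase, had 31 and 110 UMIs over all kept nuclei, a log2 ratio of 1.29 (0.70 to 1.91). It passed the minimum in no single class compared. A ratio over all kept nuclei also takes in their make-up, such as 16.2% oligodendrocyte-like nuclei in Normal and 23.0% in SAH.

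From a list of 22 zinc and copper genes, 0 of 19 in oligodendrocyte-like and 1 of 18 in microglia-like nuclei were past 2-fold. In excitatory and in inhibitory neuron-like nuclei it was 1 of 21 each. The shares over all genes were 7.55%, 6.40%, 7.64% and 3.88% higher and 6.11%, 5.55%, 5.22% and 5.49% lower, in that order of classes. The 3 genes past 2-fold were each lower in SAH. By class in the same order, they were the copper-zinc superoxide dismutase Sod1 at -1.05 (-1.75 to -0.35), Slc30a10 at -1.07 (-1.46 to -0.68) and Slc39a1 at -1.55 (-2.27 to -0.87). Mtf1 itself, the factor that reads the metal response elements, had log2 ratios of -0.11 (-0.35 to 0.14) in oligodendrocyte-like and 0.14 (-0.38 to 0.68) in microglia-like nuclei. Slc30a1, the zinc exporter and another known target of MTF1, had 12.7 and 12.3 CPM in oligodendrocyte-like nuclei. Haemoglobin genes summed to 7.41 CPM in the Normal and 2.87 CPM in the SAH library, so their RNA was not higher in SAH.

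The 3 genes whose log2(CPM + 1) over the 14 class and library values was most like each member's, by Pearson correlation, were as follows. They were Cers2, Sypl and Prdx1 for Fth1 (0.986 for the first and 0.946 for the last), Rpl23, Mrfap1 and Ppp4r2 for Ftl1 (0.962 and 0.956), and Rnf13, Itsn2 and Tbc1d5 for Trf (0.982 and 0.968). For Tfrc they were Mapk8ip2, Vgf and Spats2l (0.925 and 0.836), for Slc11a2 Nop10, Zfp867 and Rbm12b1 (0.947 and 0.927), for Slc40a1 Parp14, Hk3 and Epsti1 (0.989 and 0.985), and for Cp Dab2, Eea1 and Gcfc2 (0.955 and 0.916). For the metallothioneins they were Ston2, Smc4 and Supt6 with Mt1 (0.933 and 0.928), Wdr55, Lcmt1 and Dync1li1 with Mt2 (0.952 and 0.894), and Pet100, Tuba4a and Polr3a with Mt3 (0.984 and 0.975). The 14 points share 2 libraries and differ in depth, and these values describe likeness only. Among the members themselves the closest pair was Fth1 and Trf at 0.884, followed by Fth1 and Mt1 at 0.858, and the most opposed was Tfrc and Mt1 at -0.611.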

How the data were processed

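Nuclei were isolated from frozen mouse brain tissue and sequenced as 10x Genomics 3′ single-nucleus libraries, 1 Normal and 1 SAH, each from 3 pooled mice. The authors aligned reads to mm10 with Cell Ranger, intronic reads included, and deposited raw UMI counts per gene and nucleus; the labels name version 5.0.0 and the file headers 6.1.2. Whether strand was used was not given in the sources used here.

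The limits of the study's methods were applied: 300 to 7000 genes detected, fewer than 100000 UMIs, and a mitochondrial share below 10% and a haemoglobin share below 3%. These removed 71 Normal and 29 SAH nuclei. Scrublet scores were then used to remove the top 0.8% per 1000 nuclei as likely doublets (1178 and 2644). A nucleus joined a class with at least 3 UMIs over at least 2 of its markers and at least 2 times the UMIs of the next list. UMIs were summed per class and library. Intervals are exact Poisson for CPM, exact conditional binomial for ratios and exact binomial for shares, at 95%. Clusters came from 2003 variable genes without the members (25 components, Leiden resolution 1.2), with the libraries pooled and not integrated, unlike in the study's methods. For shares of nuclei, each was thinned to 1000 UMIs. Gene spans were taken from GENCODE vM21 (GRCm38), which covered 99.8% of genes. The ratio script was tested on simulated counts. Python 3.11.15, scipy 1.17.1, scanpy 1.11.5 and leidenalg 0.10.2 were used.

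The members and gene lists were chosen with earlier results of these data known. The text names all members, genes of the iron and haem and of the zinc and copper lists past 2-fold with at least 50 UMIs in the 4 largest classes, haemoglobin genes as a sum, and the 3 genes most alike each member. Fbxl5, Fech, Hmox1, Aco1, Ireb2, Mtf1, Slc30a1 and the genes that lead S3 were named after their values were seen.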

Additional observations from a re-analysis of the deposited data

Results flagged for a closer look

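Trf had ratios of opposite sign between classes, with log2 ratios of SAH over Normal of 1.28 in excitatory and 0.85 in inhibitory neuron-like nuclei, against -0.18 in oligodendrocyte-like, -0.22 in microglia-like and -1.47 in border macrophage-like nuclei. Mt1 had 0.22 in oligodendrocyte-like and -0.55 in microglia-like nuclei. These were listed because the counting intervals lay on opposite sides of 0. For Mt1 neither sign held under every alternative. In oligodendrocyte-like nuclei it turned lower with equal weights and without S3 (-0.25). In microglia-like nuclei it turned higher against genes of like span (0.13). With 1 library per condition the difference between classes was not tested.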

How the results depend on the processing

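No paired analysis was possible because each condition had 1 library, and for the same reason no library could be left out. Of the 43 pairs of gene and class, 31 kept their sign under every alternative run for them and 12 changed it under at least 1. The 4 pairs at least 2-fold higher in SAH became 1 with nuclei thinned to 1000 UMIs, where Trf in excitatory neuron-like nuclei kept 152 UMIs but was at 0.87 and Mt2 and the inhibitory Cp value had under 50 UMIs, 2 with a minimum of 200 UMIs and 7 at 1.5-fold. The 9 pairs at least 2-fold lower became 4 with a minimum of 200 UMIs and 14 at 1.5-fold, where 12.95% of all pairs were higher and 17.78% lower. Centring on 500 genes of like span moved more of the ratios than any other alternative, for example Ftl1 in microglia-like nuclei to -0.36 and Mt2 in oligodendrocyte-like nuclei to 1.84. Single ratios moved further elsewhere, such as Fth1 to 1.17 in precursor-like nuclei with the stricter gate and to -2.12 in astrocyte-like nuclei with equal weights, and Mt2 in oligodendrocyte-like nuclei to 0.27 without S3. Trf in excitatory neuron-like nuclei ranged from 0.87 to 1.47, Cp in microglia-like nuclei from 1.57 to 2.33 and Slc40a1 in microglia-like nuclei from -1.25 to -1.07. Leaving out the Trf-rich cluster S3 was chosen after seeing the data, and it counts among the alternatives of the oligodendrocyte-like pairs. Precursor, astrocyte and border macrophage values rest on few nuclei, and differences in them below about the width of their intervals were not detectable at this depth.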
